A study of Mus musculus with 2 samples.

Results

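The genes described here encode the ligands, receptors and Smad proteins of the BMP, activin and TGF-beta pathways. They were chosen by name as the protein-coding genes of the GENCODE M21 annotation whose symbols begin with Bmp, Gdf or Tgfb and a number, Bmpr, Acvr, Smad, Tgfbr, Inha or Inhb. The rule found 52 genes of 21951 protein-coding genes, among 55536 annotated genes in all. No measured value entered the rule. Of these, 3 matches by name alone are no ligand, receptor or Smad. These are Bmp2k, Tgfb1i1 and Bmp1, and they are kept apart below.

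Polyadenylated RNA of liver was sequenced from healthy mouse embryos of strain B6NCrl at 12.5 days of development, with no treatment or mutant allele given in the labels. Livers of male and female embryos were pooled, 120 embryos for replicate 1 and 88 for replicate 2. Each library started from 10 ng of RNA with ERCC spike-ins, which are synthetic RNAs added in known amounts. The labels give a single tissue, strain and stage, so the values below are levels in 1 group of 2 libraries and no test between conditions was possible.

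Ligands of this superfamily are secreted dimers that bring together type I and type II receptor kinases at the cell surface. The type II receptor phosphorylates the type I receptor, which then phosphorylates receptor Smads. Smad1, Smad5 and Smad9 serve the BMP branch, Smad2 and Smad3 serve the activin and TGF-beta branch, and both sets enter the nucleus with Smad4. In the embryonic liver BMPs from neighbouring mesenchyme take part in forming the liver bud, TGF-beta and activin shape hepatoblast fate, and later BMP signalling controls hepcidin, the hormone that limits iron uptake.

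The 2 libraries held 37190042 and 34291772 expected counts over annotated genes, and spike-ins took 4.99% and 5.40% of TPM. TPM, the number of transcripts scaled to a fixed library sum, divides counts by transcript length before that scaling, so it allows levels of different genes to be set side by side. Markers of the labelled tissue were abundant. The hepatoblast gene Afp stood at 5250 and 5065 TPM in replicates 1 and 2. The red cell gene Hbb-bs, a globin, stood at 59316 and 61156 TPM. All 4 red cell markers and all 4 hepatoblast markers were above 10 TPM, as were 3 of 6 endothelial, 3 of 7 stellate and mesenchymal and 3 of 4 macrophage markers. Markers of heart summed to 29.97 and 40.57 TPM, and those of skeletal muscle to 34.47 and 43.95 TPM.

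Of the 52 genes, 36 had a mean of 1 TPM or more, beside 54.5% of all protein-coding genes, and 8 had a mean of 10 TPM or more, beside 32.1%. The median was 2.35 TPM, beside 1.87 TPM over all protein-coding genes. Together the 52 genes held 0.0267% and 0.0272% of TPM. Most were thus detected and few were abundant. These are bulk samples, so fewer cells of a type and less RNA per cell cannot be told apart. Values are given for replicate 1 and then replicate 2, with means ± SD over both (n = 2), and the SD covers only the spread between these pools, which carry the same donor label.

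**Figure D1:**
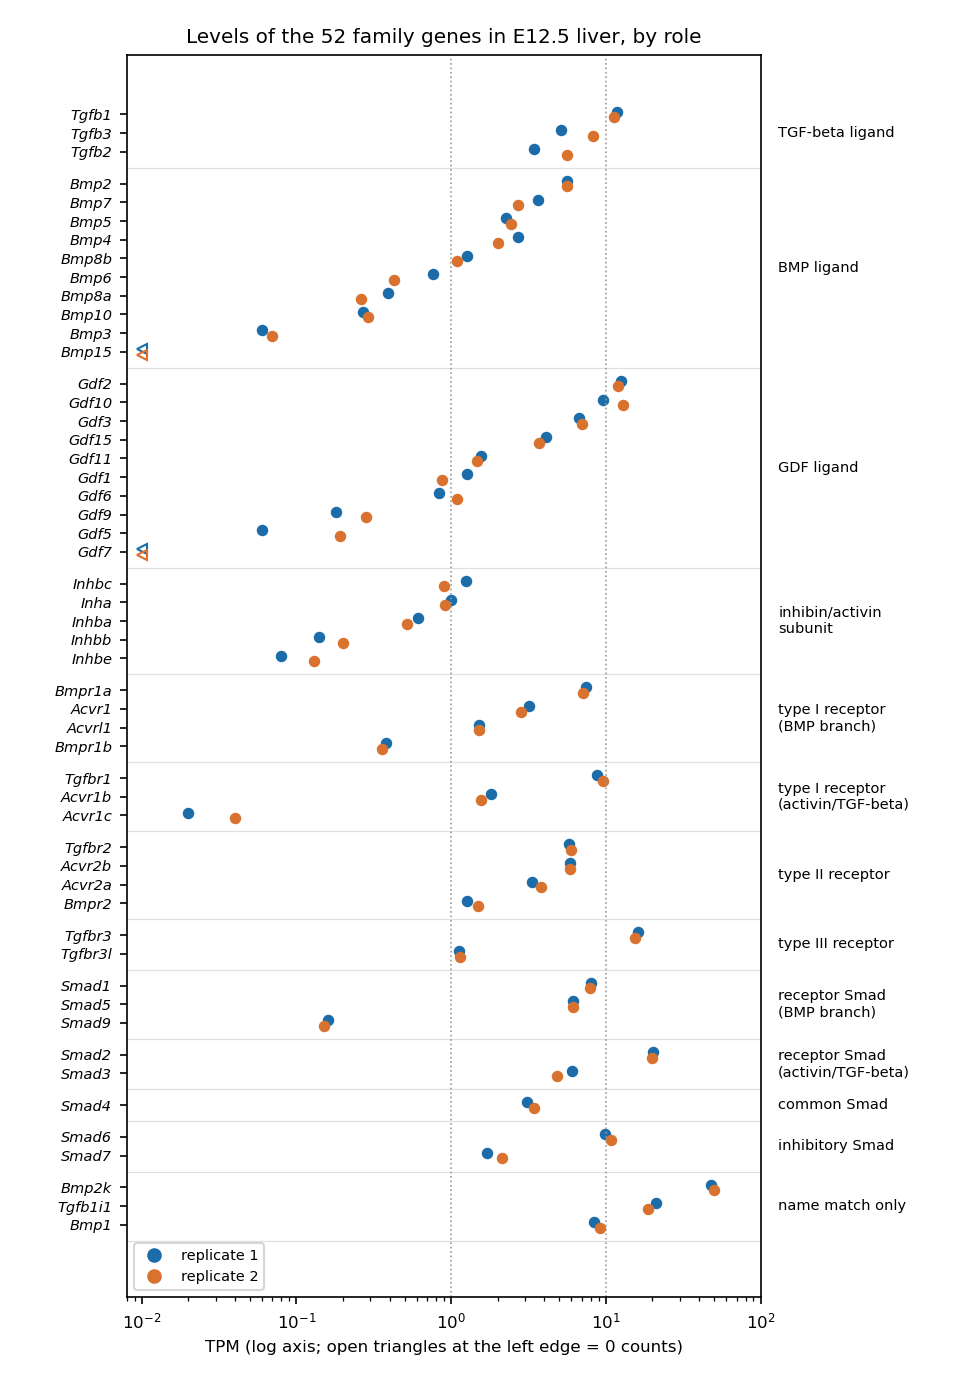
TPM (horizontal log axis) of each of the 52 genes in replicate 1 (blue) and replicate 2 (orange), grouped by role, with dotted lines at 1 and 10 TPM and open triangles for genes with 0 counts. Bmp2k is the highest at 47.95 and 49.96 TPM, Smad2 is the highest Smad and Tgfbr3 the highest receptor, and the points of Tgfb2 and Tgfb3 lie farther apart than those of Tgfb1.

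Among the TGF-beta ligands, Tgfb1 had the highest gene TPM. Tgfb1 (chr7:25687002-25705077, mm10, plus strand), known as the form made by many blood and endothelial cells, stood at 11.9 and 11.3 TPM from 720 and 633 counts. Tgfb3 (chr12:86056745-86079041, minus strand) stood at 5.15 and 8.25 TPM, and Tgfb2 (chr1:186622792-186705989, minus strand) at 3.41 and 5.59 TPM. Both are known from mesenchyme and muscle lineages of the embryo. By gene TPM, Tgfb1 was above both in each library, whereas the ranges of Tgfb3 and Tgfb2 overlapped. The coding transcript Tgfb1-201 alone stood at 8.09 and 7.62 TPM, which in replicate 2 was below Tgfb3. The order of Tgfb1 and Tgfb3 in replicate 2 thus rested on transcripts of Tgfb1 not annotated as coding. The summed level of the 3 ligands was 22.8 ± 3.33 TPM.

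Tgfb2 was read from 2 coding transcripts that differ by 1 segment of the coding sequence. Tgfb2-206 carries 84 further coding bases (28 codons) at chr1:186690721-186690804 on the minus strand. The segment lies in the part of the precursor before the mature ligand, and it is shown because Tgfb2 stood out between the libraries below. Capitals mark the segment and lower case its 15-base flanks in the same transcript, and the second line is the junction in Tgfb2-201, which lacks it.
Tgfb2-206: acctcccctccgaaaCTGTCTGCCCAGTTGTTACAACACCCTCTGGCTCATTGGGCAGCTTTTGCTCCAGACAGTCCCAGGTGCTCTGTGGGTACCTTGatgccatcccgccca
Tgfb2-201: acctcccctccgaaaatgccatcccgccca
Tgfb2-206 held 15.6% and 22.5% of the gene's summed transcript TPM, and Tgfb2-201 held 45.3% and 47.8%. The estimated counts behind Tgfb2-206 were 58.7 and 129, with deposited posterior SDs of 23.8 and 29.3. A further 23.8% and 22.4% went to Tgfb2-205, a transcript with a retained intron.

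Of 10 BMP ligands, 5 reached 1 TPM and none reached 10 TPM. Bmp2 led with 5.58 and 5.61 TPM from 630 and 586 counts. It is known as an endothelial signal to hepatocytes in iron control. Bmp7 followed at 3.66 and 2.72 TPM, Bmp5 at 2.28 and 2.44 TPM and Bmp4, a classical signal in liver bud formation, at 2.69 and 2.00 TPM. Of the Bmp7 level, 31.15% and 10.66% lay on Bmp7-202, a transcript with a retained intron. The coding Bmp7-201 stood at 2.52 and 2.43 TPM, which overlapped the range of Bmp5. Bmp5 and Bmp4 overlapped in range and were not separated. The Bmp4 level included 1.01 and 0.61 TPM of Bmp4-204, a transcript with a retained intron, from 5.24 and 2.96 counts. Under the older GENCODE M4 annotation Bmp4 stood at 1.75 and 1.47 TPM, below Bmp5 at 2.37 and 2.53 TPM. Bmp8b stood at 1.26 and 1.09 TPM.

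The BMP ligands under 1 TPM ran from Bmp6 down to Bmp15. Bmp6, the main iron-responsive ligand of the adult liver, stood at 0.76 and 0.43 TPM from 77 and 45 counts. It was lower than Bmp2 in both libraries. Exons of Bmp6 overlap Txndc5 on the opposite strand over 5.74% of their bases, and Txndc5 stood at 87.1 and 85.6 TPM. Strand use in counting is not given in the sources used here. The deposited posterior SDs of the Bmp6 counts were 0.05 and 0, so the deposited assignment of reads to Bmp6 carried almost no uncertainty. Bmp8a and Bmp10, the latter a heart ligand, overlapped at 0.26 to 0.39 TPM, and Bmp3 was at 0.06 and 0.07 TPM. Bmp15, an oocyte factor, had 0 counts in both libraries, which allows up to 3 counts in each, or 0.0310 and 0.0335 TPM. These limits cover counting error only, since the reads carry no molecular identifiers.

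Of 10 GDF ligands, 6 reached 1 TPM on average and 2 reached 10 TPM. Gdf2 (chr14:33941039-33947198, plus strand) encodes BMP9, the circulating ligand that the liver supplies to endothelium. It stood at 12.6 and 12.1 TPM from 1190 and 1055 counts. Gdf10 (chr14:33923587-33937983, plus strand), also called BMP3b, stood at 9.58 and 13.01 TPM from 1600 and 2011 counts. The 2 genes are neighbours 3055 bases apart on the same strand, and their ranges overlapped. They were the only GDF ligands at a mean of 10 TPM or more.

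Gdf3, a relative of Nodal-type ligands, stood at 6.66 and 7.03 TPM. Gdf15, a stress-responsive ligand of another receptor system, stood at 4.10 and 3.72 TPM. Gdf11, close in sequence to myostatin, stood at 1.56 and 1.48 TPM. Gdf1, a partner of Nodal in left-right patterning, was near 1 TPM with 1.26 and 0.87. All exonic bases of Gdf1 lie within exons of Cers1 on the same strand, and its 51.4 and 32.7 counts had posterior SDs of 5.45 and 4.09, so its share of those reads is uncertain. Gdf6, known from joint and eye development, overlapped it at 0.84 and 1.09 TPM. Gdf9 and Gdf5 were between 0.06 and 0.28 TPM and were not separated. Gdf7 had 0 counts in both libraries, which allows up to 0.0700 and 0.0756 TPM.

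The inhibin and activin subunits were low. Inhbc, a beta subunit known from the liver, stood at 1.24 and 0.90 TPM and was the 1 gene of 5 at a mean of 1 TPM or more. Inha, the alpha subunit that turns activins into inhibins, stood at 1.00 and 0.91 TPM and overlapped Inhbc. Inhba, whose dimer is activin A, stood at 0.61 and 0.52 TPM. Inhbb and Inhbe lay between 0.08 and 0.20 TPM. Inhbe lies 1910 bases from Inhbc on chromosome 10, on the same strand, and its 13 and 20 counts compare with 71 and 48 for Inhbc. The 5 subunits summed to 2.87 ± 0.290 TPM, beside 15.9 ± 1.44 TPM for the BMP ligands and 38.3 ± 2.04 TPM for the GDF ligands.

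The type II receptors were all above 1 TPM. Tgfbr2 (chr9:116084293-116175360, minus strand), the TGF-beta receptor that binds ligand first, stood at 5.79 and 5.96 TPM. Acvr2b (chr9:119402118-119434995, plus strand), a receptor for activins and several BMPs and GDFs, stood at 5.91 and 5.83 TPM. Their ranges overlapped. Acvr2a stood at 3.31 and 3.82 TPM. Bmpr2, the receptor selective for BMPs, was the lowest at 1.26 and 1.5 TPM. The exons of Acvr2a overlap Orc4 on the opposite strand over 7.84% of their length, and Orc4 stood at 50.04 and 46.03 TPM. The 603 and 645 counts of Acvr2a had posterior SDs of 3.39 and 3.49, so few of them were uncertain in the deposited assignment.

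Tgfbr2 and Acvr2b were each read as a mixture of coding transcripts, and the segments that separate them are shown because the shares below turn on them. Tgfbr2-202 carries 75 coding bases (25 codons) at chr9:116158271-116158345 on the minus strand, an insert known to lie in the extracellular part of the receptor. Acvr2b-202 carries 24 bases (8 codons) at chr9:119428201-119428224 that Acvr2b-201 lacks, and 72 bases (24 codons) at chr9:119428353-119428424 that Acvr2b-205 lacks, both on the plus strand and in exons. Capitals mark the segment, lower case its 15-base flanks, and each second line is the junction in the transcript without it.
Tgfbr2-202: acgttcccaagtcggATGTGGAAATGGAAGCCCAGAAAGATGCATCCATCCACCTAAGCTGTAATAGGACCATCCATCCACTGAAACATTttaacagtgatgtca
Tgfbr2-201: acgttcccaagtcggttaacagtgatgtca
Acvr2b-202: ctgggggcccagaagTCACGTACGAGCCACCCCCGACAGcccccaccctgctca
Acvr2b-201: ctgggggcccagaagcccccaccctgctca
Acvr2b-202: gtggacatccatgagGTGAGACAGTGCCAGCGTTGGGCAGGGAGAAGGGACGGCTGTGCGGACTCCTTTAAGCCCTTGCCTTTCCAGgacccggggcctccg
Acvr2b-205: gtggacatccatgaggacccggggcctccg
Every segment is a whole number of codons, so the reading frame is kept on both sides.

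In the BMP branch of type I receptors, Bmpr1a led with 7.41 and 7.15 TPM. Bmpr1a, also called ALK3, is the main BMP type I receptor of hepatocytes. Acvr1, or ALK2, stood at 3.17 and 2.83 TPM, and Acvrl1, or ALK1, the endothelial receptor for BMP9, at 1.52 and 1.51 TPM. The Acvrl1 value is uncertain. It lay below the deposited bounds of its own TPM in both libraries, 1.76 to 3.32 and 1.82 to 3.58, whose confidence level the sources used here do not give. Its posterior mean TPM was 2.49 and 2.64. No other gene of the 36 at 1 TPM lay outside its bounds in both libraries. Among all protein-coding genes at 1 TPM, 3.80% did. Bmpr1b, a receptor known from cartilage and ovary, stood at 0.38 and 0.36 TPM.

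In the activin and TGF-beta branch, Tgfbr1, or ALK5, stood at 8.79 and 9.59 TPM. It was the highest of all 7 type I receptors in both libraries. Acvr1b, or ALK4, stood at 1.81 and 1.56 TPM. Acvr1c, or ALK7, had 5 and 11 counts and 0.02 and 0.04 TPM. The summed levels of the branches were 12.2 ± 0.446 TPM for BMP and 10.9 ± 0.403 TPM for activin and TGF-beta, a log2 ratio of 0.23 in replicate 1 and 0.08 in replicate 2 (mean 0.16 ± 0.106). With posterior mean TPM the ratio was 0.29. Among the type I receptors at 1 TPM or more, Acvrl1 was the one whose level moved by over 1.5 times with that estimate, and Acvr1c, from few counts, moved to 0.18 and 0.22 TPM.

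The type III receptor Tgfbr3 (chr5:107106570-107289629, minus strand) was the highest receptor of any type. Tgfbr3, or betaglycan, presents TGF-beta2 and inhibin to the signalling receptors, and it stood at 16.1 and 15.4 TPM from 3097 and 2788 counts. Tgfbr3l, a shorter relative, stood at 1.12 and 1.14 TPM. Gm49320 on the same strand overlaps 52.2% of its exonic bases, and its 1 coding transcript held only 20.7% and 12.3% of its TPM, so its level is uncertain.

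Smad2, the receptor Smad of the activin and TGF-beta branch that most cells carry, was the highest Smad at 20.3 and 19.9 TPM from 1758 and 1610 counts. Smad3, its partner, stood at 6.08 and 4.84 TPM. In the BMP branch Smad1 stood at 8.03 and 7.93 TPM and Smad5 at 6.10 and 6.12 TPM, whereas Smad9, also called Smad8, stood at 0.16 and 0.15 TPM. Neighbours within each branch were separated in both libraries. Summed, the BMP branch had 14.2 ± 0.0636 TPM and the other branch 25.6 ± 1.21 TPM, a log2 ratio of -0.89 and -0.80 (mean -0.84 ± 0.062). The direction rested on Smad2: without it the ratio was 1.39 ± 0.226.

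Smad4, the Smad shared by both branches, was lower than Smad1, Smad2, Smad3 and Smad5 in each library, at 3.08 and 3.42 TPM. The receptor Smads summed to 12.3 ± 1.30 times the level of Smad4. The inhibitory Smad6, which blocks BMP signalling and is itself a BMP target, stood at 9.83 and 10.8 TPM. Smad7, which blocks both branches, stood at 1.70 and 2.13 TPM. Smad6 was above Smad7 in both libraries, and together they held a level of 0.307 ± 0.0338 of that of the receptor Smads.

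The 3 genes matched by name alone included the 1 most abundant gene of the set. Bmp2k (chr5:96997689-97091867, plus strand) encodes a kinase first found as BMP2-inducible and related to the clathrin adaptor kinase AAK1, and it stood at 47.95 and 49.96 TPM from 9098 and 8645 counts. Tgfb1i1, or Hic-5, a focal adhesion adaptor, stood at 21.02 and 18.61 TPM. Bmp1, a protease that processes procollagen and chordin, stood at 8.37 and 9.19 TPM. The summed level of the 3 was 77.6 ± 0.297 TPM, beside 79.9 ± 3.64 TPM for all 28 ligands, 56.7 ± 0.0566 TPM for the 13 receptors and 55.3 ± 0.0778 TPM for the 8 Smads.

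Between the libraries, 46 of the 52 genes had a mean of 10 expected counts or more and were compared after scaling with the TMM method of edgeR. Calls needed a ratio past 2-fold and a count split whose exact 95% binomial interval excluded the split set by the scaling. This compares 2 libraries, not conditions. None of the 46 was called, beside 2.35% of all 17343 genes compared. From a mean count of at least 50, none of 37 was called, beside 0.358% of 13393 genes. By the interval alone, at any fold, 10 of the 46 differed, beside 22.6% of all genes. Of these 7 were higher in replicate 2, beside 11.8% of all genes, and 3 in replicate 1, beside 10.8%. The median absolute log2 difference was 0.15 for these genes and 0.10 for all genes.

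Tgfb2 was the farthest apart of the 46, 1.80-fold higher in replicate 2 (log2 0.85) from 344 and 572 counts, and 4.41% of all genes compared were at least as far apart. Tgfb3 was 1.61-fold higher in replicate 2 from 552 and 819 counts. Tgfb1, the third ligand of the group, was 1.05-fold higher in replicate 1, and its interval held the scaled split. Gdf10 was 1.36-fold higher in replicate 2. Bmpr2, Acvr2a, Bmp1 and Smad6 were 1.10- to 1.20-fold higher there. In the other direction, Bmp6 was 1.57-fold higher in replicate 1, Smad3 1.19-fold and Tgfb1i1 1.10-fold. Scaled by the spike-ins, the median of all genes moved by -0.12 on the log2 scale, and 15 of the 46 had an interval excluding the split. Of these, 3 (Tgfb2, Tgfb3 and Gdf10) were higher in replicate 2 and 12 in replicate 1. The share of all genes with such an interval was not taken under that scaling. The 3 and 12 therefore cannot be read as particular to these genes. None of the 46 was called under spike-in scaling, beside 2.38% of all genes, or with DESeq2 size factors, beside 2.35%.

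Markers of muscle differed between the same libraries. Myog, the myogenin gene of skeletal muscle precursors, had 41 and 173 counts and was 4.53-fold higher in replicate 2, Myod1 was 3.93-fold and Acta1 2.42-fold higher there, and all were called. The fourth skeletal muscle marker, Mylpf, had 505 and 513 counts and was not. Of the heart markers, Actc1 (2.23-fold) and Tnnt2 (2.07-fold) were called higher in replicate 2, and Myl7, Myh6 and Nppa were not. The part of these cells in the Tgfb2, Tgfb3 and Gdf10 differences was not tested. The 7 stellate and mesenchymal markers summed to 326.1 and 338.2 TPM, and none of them was called. By the interval alone, as for Tgfb2, Tgfb3 and Gdf10, Col1a1 (1.13-fold) and Pdgfrb (1.17-fold) were higher in replicate 2. The intervals of the other markers of that list held the scaled split.

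**Figure D2:**
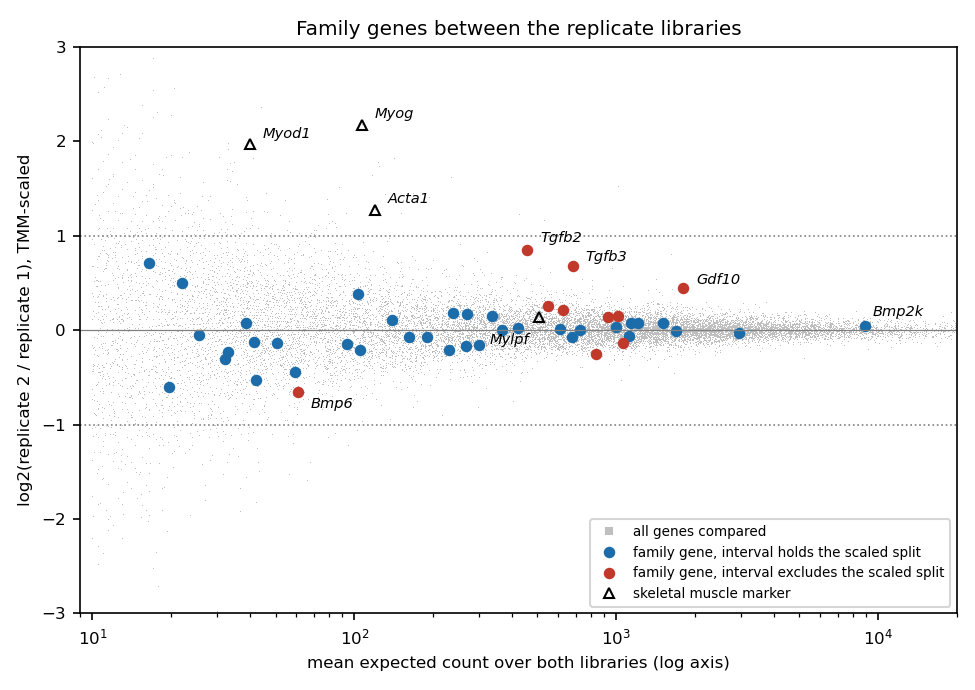
Log2 ratio of replicate 2 over replicate 1 after TMM scaling (vertical axis) against the mean expected count (horizontal log axis) for all genes compared (grey), the 46 family genes compared (blue, or red where the binomial interval excluded the scaled split) and 4 skeletal muscle markers (triangles), with dotted lines at 2-fold and genes beyond the axes not drawn. Tgfb2 at 0.85 and Tgfb3 at 0.69 lie inside the dotted lines, below Myog at 2.18, Myod1 at 1.97 and Acta1 at 1.28.

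Transcript shares were taken for the 19 family genes at a mean of 5 TPM or more, 15 of which have more than 1 annotated transcript. Of those 15, 6 had at least 2 transcripts with 10% of the gene's TPM in both libraries, beside 60.9% of protein-coding genes at that level. They were Acvr2b, Bmp1, Bmp2k, Smad2, Tgfb1 and Tgfbr2. In 4 of them the second transcript codes for protein, and in Bmp1 and Tgfb1 it does not.

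Tgfbr2-202, with the 75-base insert printed above, held 43.9% and 43.1% of Tgfbr2, and Tgfbr2-201 held 56.1% and 56.9%. The 2 libraries thus differed by under 1 percentage point. Under the older M4 annotation, which gives these transcripts other lengths, the share of Tgfbr2-202 was 56.8% and 36.9%, so the order of the 2 forms differed between the libraries there. For Acvr2b, Acvr2b-202 with both inserts held 38.4% and 43.7%, Acvr2b-205 without the 72-base segment 28.3% and 23.3%, and Acvr2b-201 without the 24-base segment 15.7% and 20.7%. Under M4 the order of Acvr2b-202 and Acvr2b-201 was reversed, with 63.7% and 51.9% on Acvr2b-201 and 36.3% and 48.1% on Acvr2b-202. Those shares are over another set of transcripts, as Acvr2b-205 was not among those of M4. The model of Acvr2b-202 was also 1696 bases long there and 2093 under M21. The M21 counts behind Acvr2b-201 were 49.7 and 59.4, with posterior SDs of 16.8 and 17.3.

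Smad2-201, the full form, held 64.8% and 67.4% of Smad2. Smad2-202 lacks 90 coding bases (30 codons), an exon known to hinder direct DNA binding by Smad2, and it held 23.6% and 20.6%. Smad2-205 held 9.60% and 9.87%. These shares depended on the annotation. Under M4 Smad2-202 was listed at 0 in both libraries and Smad2-205 held 89.8% and 88.6%, its model being 2857 bases long there and 8089 bases under M21. The gene's own level was close under both, at 20.3 and 19.9 TPM under M21 and 19.1 and 18.6 TPM under M4.

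Bmp2k-201 held 64.3% and 62.2% of Bmp2k and Bmp2k-202 held 35.7% and 37.8%, with nearly the same shares under M4 (35.6% and 37.7% for Bmp2k-202). Bmp2k-202 has 1947 coding bases and Bmp2k-201 has 3414. The forms part at 1 point on chromosome 5, plus strand, shown here because this is the most abundant gene of the set. Bmp2k-202 ends its coding sequence with 35 bases of its own at chr5:97068557-97068591, and Bmp2k-201 goes on with an exon of 111 coding bases at chr5:97074633-97074743. Capitals mark the part specific to each form, and the leading lower-case flank is shared. The trailing lower-case flank of Bmp2k-201 is not shared, as it opens a further 1391 coding bases that Bmp2k-202 lacks.
Bmp2k-202: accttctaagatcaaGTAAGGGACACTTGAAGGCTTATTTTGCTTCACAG
Bmp2k-201: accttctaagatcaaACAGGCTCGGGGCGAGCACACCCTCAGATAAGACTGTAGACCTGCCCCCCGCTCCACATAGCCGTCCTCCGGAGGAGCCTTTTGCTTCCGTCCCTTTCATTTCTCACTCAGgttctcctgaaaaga
Exons of Bmp2k overlap Paqr3 on the opposite strand over 14.0% of their bases, and Paqr3 stood at 1.13 and 1.48 TPM.

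In Tgfb1, the coding Tgfb1-201 held 68.0% and 67.3%, and the retained-intron transcript Tgfb1-204 held 16.5% and 17.0% from 158 and 144 counts. Tgfb1-205, a short processed transcript, held 10.8% and 12.4% but rested on 6 counts in each library. In Bmp1, the coding Bmp1-201 held 80.4% and 72.1%, and Bmp1-205, annotated as a target of nonsense-mediated decay, held 13.04% and 17.41%. Tgfb2, Bmp4, Bmp7 and Gdf15, below 5 TPM, were singled out after their values were seen. In Gdf15, Gdf15-201 held 2.93% in replicate 1 and 36.3% in replicate 2, from 5.68 and 59.2 estimated counts with posterior SDs of 7.35 and 15.5, while the gene as a whole differed by 1.05-fold between the libraries. Coding transcripts held the lowest mean share in Tgfbr3l (16.5%), Tgfb2 (65.6%), Bmp4 (66.0%) and Tgfb1 (67.6%). In every other family gene at 1 TPM their mean share was at least 76.3%.

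**Figure D3:**
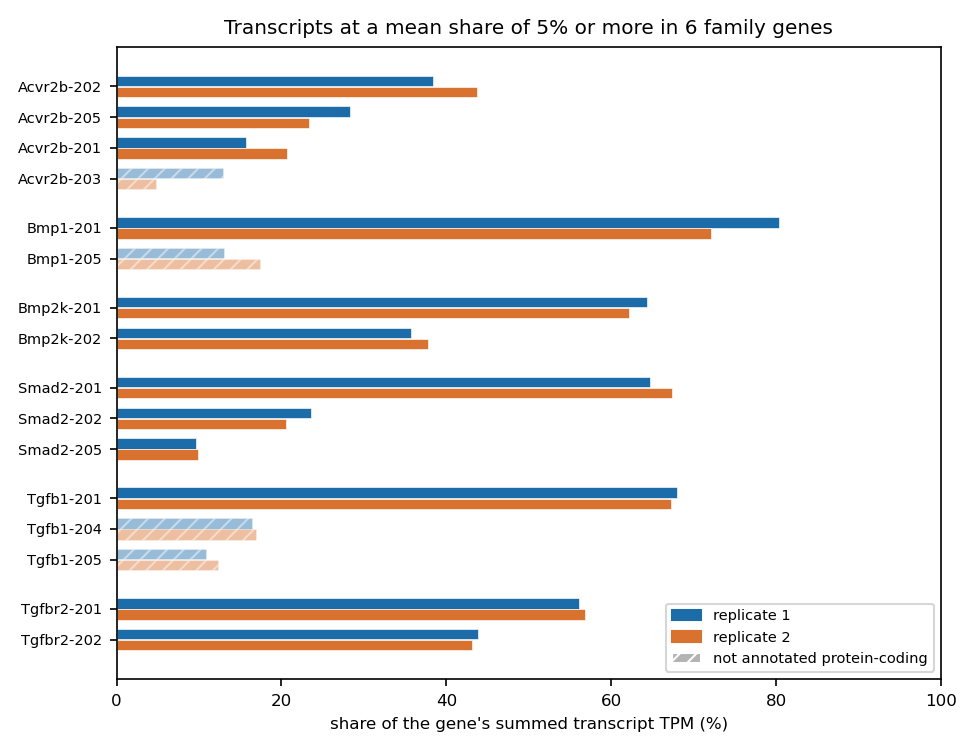
Share of the gene's summed transcript TPM (horizontal axis, percent) of each transcript with a mean of 5% or more, in replicate 1 (blue) and replicate 2 (orange), for the 6 genes with at least 2 transcripts at 10%, with hatched pale bars for transcripts not annotated as protein-coding. The 2 forms of Tgfbr2 are near even at 56.1% and 43.9% in replicate 1, and Bmp1 and Tgfb1 have only noncoding second transcripts.

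The same reads had been quantified against both annotations, and 36 of the 52 genes reached 1 TPM under either and could be compared. Gdf10 was the 1 gene past 1.5-fold in both libraries, beside 5.51% of all genes compared. It stood at 9.58 and 13.01 TPM under M21 and at 20.9 and 28.4 TPM under M4, a difference of -1.06 on the log2(TPM + 1) scale. Its counts were nearly equal, 1600 and 2011 against 1586 and 1990, while its length was 5210 bases under M21 and 2507 under M4. On the M4 scale Gdf10 was above Gdf2 in both libraries, whereas under M21 they overlapped. Gdf1 was not among the M4 genes.

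Other genes of the pathway were taken as lists, to be read beside the same background of 54.5% of protein-coding genes at 1 TPM, 32.1% at 10 TPM and a median of 1.87 TPM. The 21 secreted antagonists included 9 genes at 1 TPM and 3 at 10 TPM, with a median of 0.68 TPM. Fstl1, a follistatin relative of mesenchyme, stood at 37.5 and 45.3 TPM. Dcn, or decorin, a matrix proteoglycan that binds TGF-beta, stood at 34.01 and 27.97 TPM, and Twsg1, a chordin partner, at 19.4 and 22.1 TPM. The classical antagonists were lower: Fst, which traps activin, stood at 6.24 and 6.93 TPM, Nog at 0.17 and 0.19 TPM, and Cer1 had 0 counts. The 21 genes summed to 116.9 ± 5.79 TPM against 79.9 ± 3.64 TPM for the ligands, a log2 ratio of 0.54 and 0.55. That direction rested on Fstl1 and Dcn, since without them the ratio was -0.85 ± 0.082. Htra1, a secreted protease of the list, was called higher in replicate 2 (2.21-fold, from 37 and 76 counts).

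The co-receptors had 4 of 9 genes at 1 TPM and a median of 0.70 TPM. Eng, or endoglin, the endothelial co-receptor of Acvrl1, stood at 29.7 and 27.1 TPM, far above Acvrl1 itself, and the 6 endothelial markers summed to 91.4 and 87.9 TPM. Bambi, a decoy receptor without a kinase, stood at 7.11 and 6.5 TPM. The Nodal co-receptors Tdgf1, at 0.03 and 0.04 TPM, and Cfc1, with 0 counts, were at the floor. The ligands Nodal, Mstn and Amh were all under 1 TPM, with Nodal the highest at 0.26 and 0.31 TPM.

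Genes that store and release latent TGF-beta had a median of 4.76 TPM, and 9 of 13 reached 1 TPM. Thbs1, or thrombospondin, an activator stored in platelets, stood at 65.9 and 57.9 TPM, beside 834.7 and 726.1 TPM summed over 3 megakaryocyte markers. Nrros, which anchors latent TGF-beta on macrophages, stood at 25.1 and 22.1 TPM, beside 168.5 and 170.9 TPM over 4 macrophage markers. Itgav, the alpha chain of the activating integrins, stood at 20.5 and 19.0 TPM, while its partners Itgb6 and Itgb8 had 4 and 10 counts (0.03 and 0.07 TPM) and 42 and 67 counts (0.27 and 0.38 TPM).

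Intracellular regulators were the best expressed list. Their median was 11.3 TPM, and 16 of 17 genes reached 1 TPM and 9 reached 10 TPM. Fkbp1a, the FKBP12 protein that keeps type I receptors inactive, stood at 204.7 and 195.1 TPM. Strap, a Smad7 partner with other roles in the cell, stood at 109.2 and 109.7 TPM, and Ppm1a, a Smad phosphatase, at 39.7 and 43.98 TPM. Map3k7 and Tab1, the TAK1 kinase and its activator on the branch that does not use Smads, stood at 20.9 and 21.2 TPM and at 15.8 and 15.5 TPM. Tgif2, a corepressor, stood at 13.6 and 12.9 TPM. Zfyve9, or SARA, which anchors Smad2 to the receptor, was the 1 gene below 1 TPM, at 0.76 and 0.74 TPM. Many of these proteins serve other pathways as well.

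Of 8 genes of the hepcidin axis, 5 reached 1 TPM. Tfr2, the transferrin receptor of liver and red cell precursors, stood at 42.7 and 45.1 TPM. Erfe, the red cell hormone that binds BMPs, stood at 6.58 and 5.33 TPM, and Tmprss6, the protease that restrains the axis, at 5.66 and 4.90 TPM. Hepcidin itself was at the limit of detection, with 1 and 3 counts of Hamp and 0 of Hamp2. The co-receptor Hfe2, or hemojuvelin, stood at 0.57 and 0.82 TPM. The receptor Tfr2 was thus among the higher pathway genes while neither hepcidin gene passed 3 counts in a library.

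Genes known to respond to BMP had 5 of 9 at 1 TPM and a median of 1.72 TPM. Id2 stood at 93.5 and 93.3 TPM, Id3 at 67.9 and 73.7 TPM and Id1 at 25.7 and 23.5 TPM. These inhibitors of basic helix-loop-helix factors also respond to other signals. Id4, Msx1 and Msx2 were between 0.27 and 0.56 TPM. Genes known to respond to TGF-beta had 6 of 9 at 1 TPM and a median of 3.67 TPM. The collagen gene Col1a1, at 113.5 and 128.0 TPM, and the matrix gene Tgfbi, at 11.3 and 11.7 TPM, were the 2 above 10 TPM. Pmepa1, at 0.20 and 0.31 TPM, and Cdkn2b, at 0.21 and 0.13 TPM, were below 1 TPM. Levels at a single stage do not measure pathway activity.

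**Figure D4:**
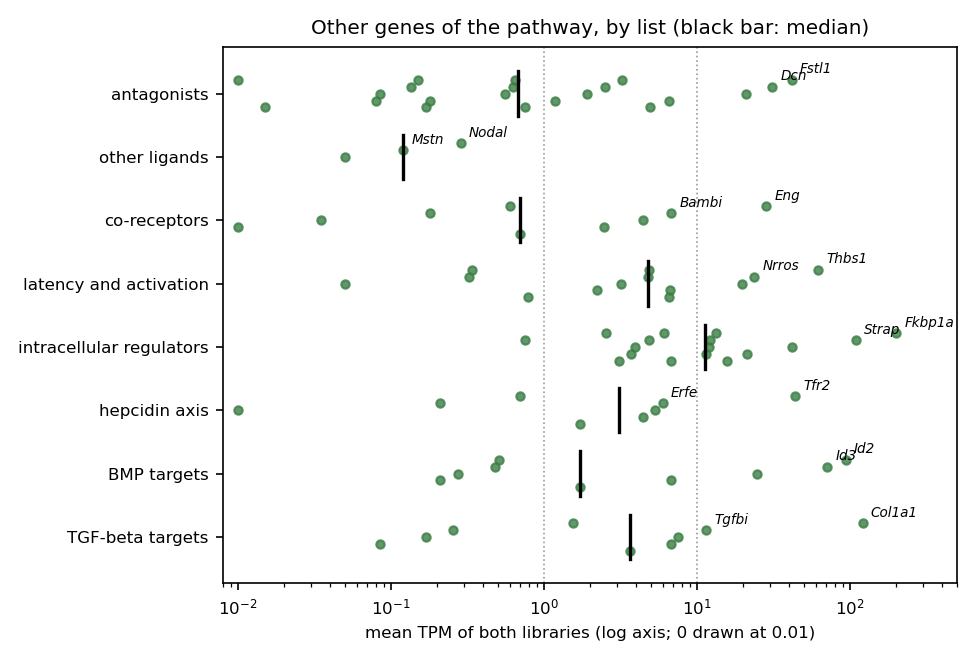
Mean TPM over both libraries (horizontal log axis, genes at 0 drawn at 0.01) of each gene in 8 lists of other pathway genes (rows), with black bars at the list medians, dotted lines at 1 and 10 TPM and labels on the 2 highest genes of each list. The intracellular regulators have the highest median, 11.3 TPM, and antagonists and co-receptors the lowest among lists with a gene above 10 TPM, 0.68 and 0.70 TPM.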

How the data were processed

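PolyA RNA of 2 biological replicate libraries of liver, as the labels number them, was analysed. Gene and transcript tables held expected counts, which can be fractional, TPM and a posterior mean of TPM, each used as the authors deposited it. Scores of uncertainty in those tables, a posterior SD for each count and bounds for each TPM, were also used as deposited. Notes deposited with each library name mm10 and GENCODE M21 or M4. The sources used here do not name the aligner, the quantifier or the strand setting. M21 was used except where M4 is named. Totals were 37190042 and 34291772 expected counts, and the 17343 genes compared had a common biological coefficient of variation of 4.51%. Counts were rounded to whole numbers only for binomial intervals.

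Levels are means ± SD of TPM. Libraries were scaled with edgeR 4.0.16 in R 4.3.3 (prior count 0.5, mean count of at least 10), with DESeq2 1.42.0 size factors as an alternative, and the procedure was tested on simulated data. The simulation held counting error only, and its planted changes were larger, and in genes of higher count, than the calls require. It therefore does not show how the calls perform near their limits or with further spread between libraries. Annotations were compared as log2(TPM + 1) among genes at 1 TPM. Transcript shares were taken at 5 TPM. Coding segments were read from the GENCODE M21 transcripts. Genes and lists were chosen with earlier results of these data known: every member is accounted for, those at 1 TPM by value, with the leading and up to 3 low genes of each list. Alternatives included other scalings, filters, pseudocounts, estimates, the M4 annotation and each library alone. Values of some list genes are not reported here.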

Additional observations from a re-analysis of the deposited data

How the results depend on the processing

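Counts at 1 TPM, 36 genes, were 35 to 37 with either library left out, and those at 10 TPM, 8 genes, were 6 to 8. The log2 ratio of receptor Smads was -0.89 to -0.80, that of type I receptors 0.08 to 0.23 and that of antagonists over ligands 0.54 to 0.55. The single gene that differed between annotations remained 1 to 1 in number, and genes with 2 transcripts at 10% numbered 6 to 7. The comparison of libraries cannot leave one out. No paired analysis was possible because the series holds 1 group. Under M4 the Smad ratio was -0.76, the antagonist ratio 0.35 and 3 genes had 2 transcripts at 10%. With posterior mean TPM the type I ratio was 0.29. With no count filter 1 gene of 50, Gdf5 (4 and 13 counts), was called between libraries, beside 2.72% of all 27707 genes. In expected counts 0 genes differed between annotations, beside 3.35% of all genes compared. From a gene mean of 1 TPM, 10 genes had 2 transcripts at 10%. The share of all genes was not taken for transcript counts under these other settings. Chosen after seeing the data, the interval at any fold gave 10 genes between libraries, the Smad ratio without Smad2 was 1.39, and the antagonist ratio without Dcn and Fstl1 was -0.85, the last 2 of opposite sign. Of the levels of genes at 1 TPM, only Gdf10 under M4 (2.18-fold) and Acvrl1 with posterior mean TPM (1.69-fold) moved by over 1.5 times. The cause of these changes was not tested. With 2 libraries of 1 group, the SD is imprecise, and genes with a mean under 10 counts were compared only with no count filter.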
